A study of Mus musculus with 20 samples.

Results

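The 9 genes described here encode the CD3 chains of the T cell receptor and the first proteins of its signalling path: *Cd3d*, *Cd3e*, *Cd3g*, *Cd247*, *Lck*, *Zap70*, *Lat*, *Lcp2* and *Cd2*. They were chosen by name and are 9 of 53380 genes in the table, and all 9 passed the filter on low values. RNA sequencing had been carried out on 20 libraries of cells sorted from mouse dorsal epidermis into 5 populations. Dendritic epidermal T cells (DETCs, 5 libraries) were sorted as α6-Sca1low Thy1+, hair follicle stem cells (HFSCs, 4) as α6+Sca1-CD34+, Thy1hi keratinocytes (4) as α6+Sca1+Thy1hi and Thy1- keratinocytes (4) as α6+Sca1+Thy1-. YFP+ cells (3) were α6+Sca1+Thy1hi cells that also carried a lineage label, which a tamoxifen-dependent Cre under the Thy1 promoter switches on in a Rosa26-EYFP reporter. The sample labels give every sample the genotype Thy1.2CreERT2-Rosa26-EYFP and no treatment, whereas the study's methods give wild-type C57BL/6J mice for the populations other than YFP+ and induced reporter mice for YFP+. The labels give ages of 8 to 27 weeks, rising by a week from sample to sample, and the series text gives 8 weeks. They also call the YFP+ cells Sca1-negative, against the sample titles and the methods. The series text calls the replicates biological and the methods state that distinct samples were measured, while a legend of the study speaks of pooled mice. Its heatmap legends count mice instead, 4 for DETCs, 5 for HFSCs, 4 each for Thy1hi and Thy1- cells and 3 for YFP+ cells. For DETCs and HFSCs these numbers are the reverse of the 5 and 4 libraries here. No source ties each library to its own mice or pool, so p-values measure the spread between these libraries.

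The T cell receptor has no signalling domain of its own. Its ligand-binding chains, γ and δ in DETCs, are held in the membrane by CD3 chains and by a dimer of the ζ chain, encoded by *Cd247*. The cytoplasmic tyrosine motifs of the CD3 and ζ chains are phosphorylated by the kinase Lck. The kinase Zap70 binds the phosphorylated motifs and phosphorylates the adaptors Lat and SLP-76 (*Lcp2*), on which phospholipase and Ras signalling are assembled, and Cd2 is an adhesion and costimulatory receptor of T cells. DETCs reside in the mouse epidermis among keratinocytes, which make none of these proteins in textbook accounts.

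The CD3 genes other than *Cd247* lie side by side on chromosome 9 (GRCm38). *Cd3g* (44969572 to 44980431, minus strand) and *Cd3d* (44981786 to 44987339, plus strand) are transcribed away from each other across 1354 bases, and *Cd3e* (44998740 to 45009627, minus strand) follows *Cd3d*. The 250 bases before the RefSeq start of each (GRCm38.p6) are shown because *Cd3d* and its neighbours, as given below, differed in how far DETCs stood from the other cells. Each runs 5′ to 3′ on the gene's own strand, and capitals mark GGAAG or, on the other strand, CTTCC, one form of the core of sites that ETS factors bind.
Cd3g, chr9:44980432-44980681, minus strand: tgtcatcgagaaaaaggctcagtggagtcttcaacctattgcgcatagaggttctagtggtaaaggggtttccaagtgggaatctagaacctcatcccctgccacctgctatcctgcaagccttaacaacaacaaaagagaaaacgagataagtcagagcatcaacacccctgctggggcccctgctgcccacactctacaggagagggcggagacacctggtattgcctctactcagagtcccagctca
Cd3d, chr9:44981536-44981785, plus strand: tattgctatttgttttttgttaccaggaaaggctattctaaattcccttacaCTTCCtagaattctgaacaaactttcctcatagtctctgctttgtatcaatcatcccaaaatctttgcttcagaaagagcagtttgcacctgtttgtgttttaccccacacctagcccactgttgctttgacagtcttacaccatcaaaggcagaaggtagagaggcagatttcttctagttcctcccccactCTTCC
Cd3e, chr9:45009612-45009861, minus strand: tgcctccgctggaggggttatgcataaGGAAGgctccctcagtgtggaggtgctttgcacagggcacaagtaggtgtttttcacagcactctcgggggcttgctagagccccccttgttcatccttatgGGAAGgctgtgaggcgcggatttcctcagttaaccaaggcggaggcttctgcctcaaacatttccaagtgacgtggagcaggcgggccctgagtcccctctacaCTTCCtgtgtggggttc

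Other forms of the ETS core were not searched. The form GGAAG was present 3 times before *Cd3e*, 2 times before *Cd3d* and not before *Cd3g*. It was found in 9 of 11 upstream windows of the 8 members with a RefSeq entry (*Cd2* had none), and in 64.1% of 32817 mouse windows of the same length. TATAAA, searched on both strands, was in none of the 11 windows and in 12.4% of all. The letters CANNTG (N is any base), GATAA and TGTGGT were searched too and were in 66.2%, 22.6% and 14.0% of all windows. Before *Cd3g* they were present 3, 1 and 0 times, and before *Cd3d* and before *Cd3e* 1, 0 and 0 times. Their share of the 11 windows is not given here. *Zap70* and *Lck* had more than 1 window each. The window of *Cd3d* was 41.2% G and C, that of *Cd3g* 51.6% and that of *Cd3e* 57.2%, against a median of 52.4% over all windows.

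Reads assigned to genes numbered 7781256 to 12982392 per library. The ribosomal RNA gene Rn45s took 13.1% to 41.5% of them. The summed level of 9 keratinocyte marker genes was 28352 to 113499 normalized counts in DETC libraries and 150448 to 356855 in the others, so DETC libraries also held keratinocyte RNA. DETC library a, one of a pair whose column numbers match no sample title, had the lowest sum, and the other 4 DETC libraries had at least 83127. HFSC library 4 also stood apart: its Rn45s share was the lowest, and its sum over 8 Langerhans cell markers was 76.4, against at least 2526 in the other HFSC libraries. The sums of Langerhans markers were 1136 to 3358 in DETC, 570 to 1349 in Thy1hi, 1014 to 2067 in Thy1- and 677 to 1277 in YFP+ libraries. None of the 8 genes was called in a comparison with DETCs. Their median log2 fold change was 1.24 against Thy1hi cells, 0.575 against Thy1- cells, 0.53 against HFSCs and 1.38 against YFP+ cells. Standard errors were wide, 1.09 for *Cd207* against Thy1hi cells, so the lack of a call does not show equal levels. Of 6 mast cell markers, 4 (*Cpa3*, *Mcpt4*, *Cma1*, *Tpsb2*) were at 0 in every DETC library. Against Thy1hi, Thy1-, HFSC and YFP+ cells in turn, fibroblast markers called higher in DETCs numbered 0, 2, 2 and 4 of 6. Endothelial markers called higher numbered 1, 0, 2 and 2 of 3, and melanocyte markers 2, 0, 0 and 1 of 4 tested. Of 2 NK cell markers tested, 1 was called higher in each comparison. None of these markers was called lower. Of all tested genes, 18.9% to 21.2% were called higher. The part of other cells' RNA, of the 2 preparation batches and of the 2 library kits in the results below was not tested, and no source says which library belongs to which batch or kit.

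The first question was how far the CD3 chains separate DETCs from the 4 keratinocyte populations. *Cd3e* had 4412, 4800, 4354, 6287 and 3435 normalized counts in DETC libraries 1, 2, 3, a and b. In Thy1hi libraries 1 to 4 it had 32.02, 47.4, 39.0 and 83.4, and in Thy1- libraries 18.2, 10.4, 20.51 and 47.5. In HFSC libraries it had 43.9, 58.7, 75.9 and 14.0, and in YFP+ libraries 12.0, 13.9 and 3.96. Every DETC library was therefore far above every other library. The mean of 4657 ± 1040 (SD, n = 5) in DETCs was 92.3 times that of 50.5 ± 22.9 (n = 4) in Thy1hi cells and 468 times that of 9.95 ± 5.28 (n = 3) in YFP+ cells.

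*Cd3g*, whose protein pairs with CD3ε, had 5727, 6239, 6332, 5215 and 3076 normalized counts in DETC libraries 1, 2, 3, a and b. It had 28.4 to 83.4 in Thy1hi, 23.1 to 87.7 in Thy1-, 13.0 to 31.7 in YFP+ and 23.1 to 81.5 in HFSC libraries. *Cd247* had 1898, 2128, 2422, 3755 and 2298 in DETC libraries and 8.92 to 36.9 over the 15 other libraries. Both genes showed the gap seen for *Cd3e*, with no library of another population near a DETC library. *Cd247* (chromosome 1, 165788681 to 165877277) shares 3007 exon bases with *Pou2f1* on the opposite strand, which had a mean of 567 in DETCs and 286 to 384 elsewhere. The strand setting of the counting is not given in the sources used here, so reads in that stretch cannot be told apart.

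*Cd3d* differed from its neighbours. It had 502, 538, 466, 501 and 365 normalized counts in DETC libraries 1, 2, 3, a and b. In Thy1hi libraries it had 60.7, 98.8, 65.0 and 34.9, in Thy1- libraries 92.4, 85.6, 75.7 and 39.4, in HFSC libraries 38.1, 44.5, 25.7 and 87.6, and in YFP+ libraries 20.9, 48.8 and 42.6. The groups still did not overlap, but the DETC mean of 474 ± 66.2 was only 7.31 times the Thy1hi mean and 12.7 times the YFP+ mean. The Thy1- mean of *Cd3d* was 15.4% of the DETC mean, whereas for the other 8 members no population mean exceeded 2.35% of the DETC mean.

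**Figure D1:**
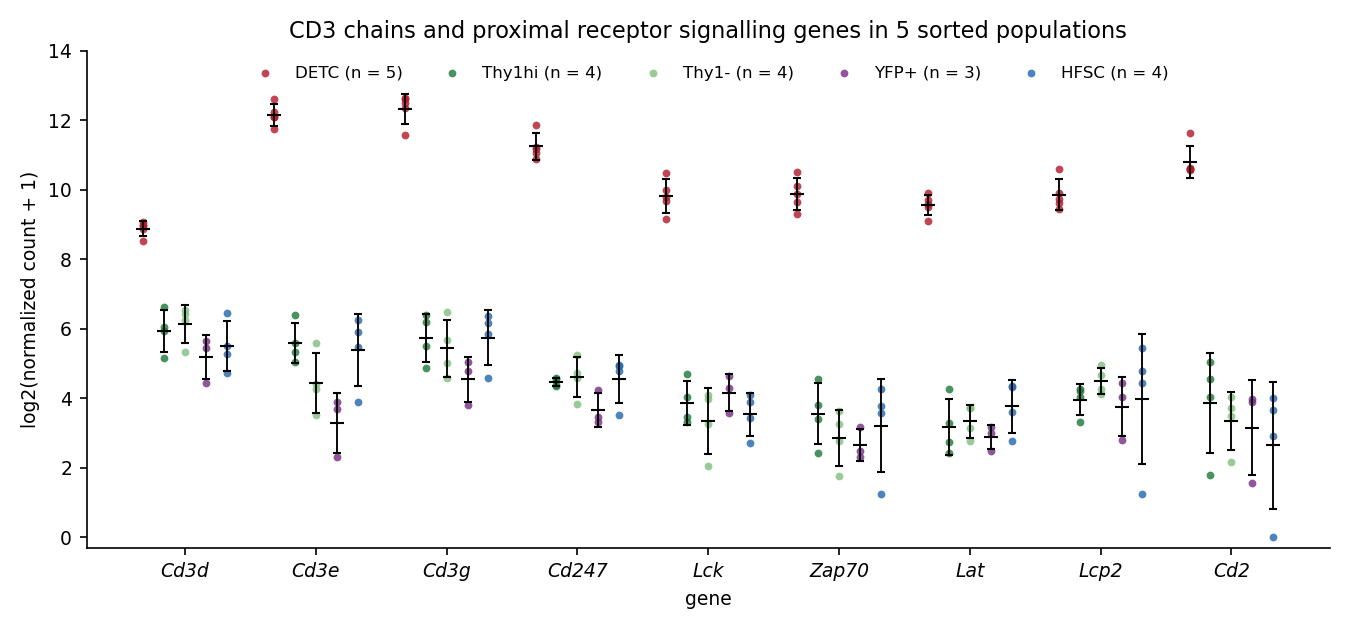
Normalized counts of the 9 genes as log2(value + 1), 1 point per library, coloured by sorted population, with black marks for the mean and SD of each group. DETC libraries lie above all other libraries for each gene, and the gap is narrowest for *Cd3d*, where DETCs had 365 to 538 and the others 20.9 to 98.8 normalized counts.

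The kinases followed the pattern of *Cd3e*. *Lck* (chromosome 4, 129548344 to 129573641) had 1023, 817, 892, 1439 and 575 normalized counts in DETC libraries 1, 2, 3, a and b, and 3.16 to 25.0 over the 15 other libraries. *Zap70* (chromosome 1, 36761798 to 36782818) had 1095, 796, 932, 1467 and 628, against 1.40 to 22.4 elsewhere. The reads behind those low values were few, 4 to 24 for *Lck* and 2 to 17 for *Zap70*.

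The adaptors did so as well. *Lat* (chromosome 7, 126363824 to 126369570) had 837, 771, 730, 958 and 545 normalized counts in the DETC libraries and 4.42 to 19.6 elsewhere. *Lcp2* (chromosome 11, 34046920 to 34092295) had 702, 791, 847, 1552 and 955, against 1.40 to 42.4. *Cd2* (chromosome 3, 101275899 to 101287939) had 1538, 1554, 1515, 3174 and 1581 in DETCs and 0 to 32.02 elsewhere. The 0 of *Cd2* was in HFSC library 4, where a count of 0 leaves room for up to 3 reads.

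In limma fits over all 17204 tested genes, all 9 members were called higher in DETCs (Benjamini-Hochberg adjusted p under 0.05) in each of the 4 comparisons. The share of all tested genes called higher in DETCs was 19.9% against Thy1hi cells, 18.9% against Thy1- cells, 21.2% against HFSCs and 20.5% against YFP+ cells. The median log2 fold change of the members was 6.38, 6.64, 6.59 and 7.23 in that order, beside medians over all tested genes of -0.0044, -0.091, 0.023 and 0.053. Against Thy1hi cells, the fitted log2 fold change on the log2(value + 1) scale was 2.93 (SE 0.347) for *Cd3d*, 6.57 (SE 0.452) for *Cd3e*, 6.59 (SE 0.411) for *Cd3g* and 6.78 (SE 0.318) for *Cd247*. It was 5.95 for *Lck*, 6.33 for *Zap70*, 6.38 for *Lat*, 5.90 for *Lcp2* and 6.95 for *Cd2*, and the limma adjusted p of the 9 genes ran from 9.37e-12 to 1.08e-06. Each member also gave the smallest p that a two-sided exact permutation test allows, 0.00794 for 5 against 4 libraries and 0.0179 for 5 against 3. How many of all tested genes reach these values is not given here.

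The 4 comparisons share the DETC libraries and are not independent. Over them, *Cd3d* had log2 fold changes of 2.93 against Thy1hi cells, 2.74 against Thy1- cells, 3.38 against HFSCs and 3.70 against YFP+ cells. The other 8 members lay between 5.36 (*Lcp2* against Thy1- cells) and 8.86 (*Cd3e* against YFP+ cells). Without DETC library a, all 9 were still called against Thy1hi cells, with log2 fold changes of 2.91 to 6.74, beside 18.4% of all tested genes called higher. Without HFSC library 4 all 9 were still called against HFSCs, with 3.70 to 7.27, beside 21.3% of all tested genes called higher. These libraries are bulk samples, in which fewer cells of a type and less RNA per cell cannot be told apart.

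To compare members within a library, each was taken relative to *Cd3e* of the same library. *Cd3d* stood at 0.114, 0.112, 0.107, 0.0797 and 0.106 times *Cd3e* in DETC libraries 1, 2, 3, a and b. In the other populations it stood at 0.338 to 10.8 times *Cd3e*, with a median of 1.90, so that the ratio was lower in every DETC library than in any of the 15 others. The difference of the log2 ratios was -4.23, with means of -3.28 ± 0.211 (SD, n = 5) in DETCs and 0.952 ± 1.46 (n = 15) in the rest. A two-sided exact permutation test over 15504 splits gave p = 6.45e-05, the smallest it can give, and an adjusted p of 0.000516 over the 8 members. That test was chosen with earlier results of these data known, and it treats the libraries of 4 populations as a single group. It rests on the same values as the fold changes of *Cd3d* and *Cd3e* given above and is not separate support for them. How many of all tested genes reach this p relative to *Cd3e* is not given here. With *Cd3g* as the reference the difference was -3.76, and leaving out each library in turn gave -4.41 to -4.07.

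No other member passed this test. *Cd3g* stood at 0.83 to 1.45 times *Cd3e* in DETC libraries and at 0.729 to 6.76 times in the others, and the log2 ratios differed by -0.474 (exact permutation test, adjusted p = 0.226). For *Lcp2* they differed by -1.59 (adjusted p = 0.0691), for *Lck* by -1.26 (0.0983) and for *Lat* by -1.14 (0.0759), all in exact permutation tests. With a pseudocount of 10 in place of 1, which pulls values of a few reads together, 5 of the 8 passed (*Cd3d*, *Lck*, *Zap70*, *Lat* and *Lcp2*).

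**Figure D2:**
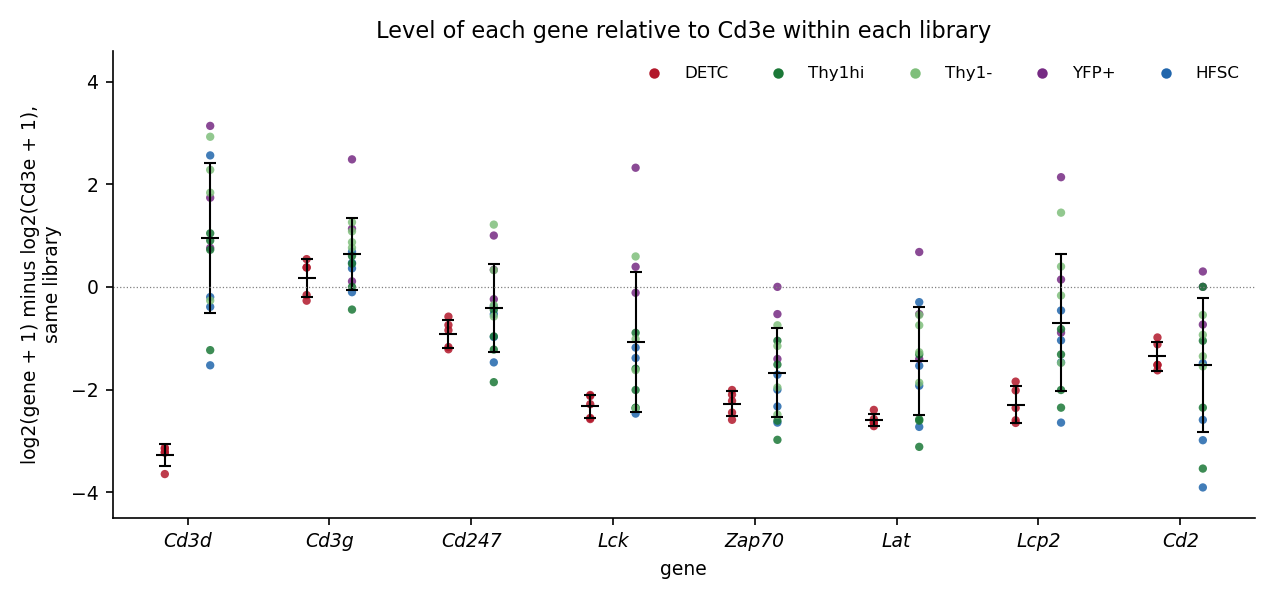
Each gene relative to *Cd3e* in the same library, as log2(gene + 1) minus log2(*Cd3e* + 1), for 5 DETC libraries (left of each pair) and 15 libraries of the other populations (right), with mean and SD in black. *Cd3d* is the gene whose groups are separate, with DETC values of -3.65 to -3.13 and other values of -1.53 to 3.14.

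Within DETCs, levels were compared between genes per kilobase of annotated exon. *Cd3g* had a mean level of 1630 normalized counts per kilobase, *Cd3e* 1140 and *Cd2* 1080, with ranges over the 5 libraries that overlapped. *Cd247* followed at 469, below every library of those 3, then *Zap70* at 329, *Lck* at 324, *Lat* at 278, *Cd3d* at 261 and *Lcp2* at 217, and each of these overlapped its neighbour in the order. The range of *Cd3d*, 201 to 296 per kilobase, did not overlap that of *Cd3e*, 842 to 1540. Exon length is the union of annotated exons, not of the transcripts used in these cells.

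The DETC libraries were not uniform. Library a had the highest *Cd3e*, *Cd247*, *Lck*, *Zap70*, *Lat*, *Lcp2* and *Cd2*, with *Cd2* at 3174 against 1515 to 1581 in the other 4, but not the highest *Cd3g* or *Cd3d*. The coefficient of variation over the 5 libraries was 13.9% for *Cd3d*, 22.3% for *Cd3e*, 25.0% for *Cd3g* and 38.9% for *Cd2*. *Cd3g* stood at 1.30, 1.30 and 1.45 times *Cd3e* in libraries 1, 2 and 3 and at 0.83 and 0.895 times in libraries a and b. *Cd247* went the other way, at 0.43, 0.443 and 0.556 times *Cd3e* in libraries 1 to 3 and 0.597 and 0.669 times in a and b. The sum of keratinocyte markers was 28352 in library a, the lowest of the 5.

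The second question was what remained of these transcripts in the 4 keratinocyte populations. The summed level of the 9 members was 191 to 345 normalized counts in Thy1hi, 206 to 282 in Thy1-, 104 to 170 in YFP+ and 155 to 303 in HFSC libraries, which is 0.561% to 1.87% of the DETC mean. Without *Cd3d* the share was 0.373% to 1.46%, and HFSC library 4 was the lowest. Over the 15 libraries, *Cd3e* and *Cd3g* had a Pearson correlation of 0.81 on the log2 scale and *Cd3e* and *Cd247* one of 0.71. *Cd3d* had correlations of -0.34 to -0.03 with the other 8 members. These are descriptions over libraries that share populations, depth and sorting, with few reads behind most values.

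In HFSC library 4, *Cd3d* was at 87.6, the highest of the HFSC libraries, while *Cd3e*, *Cd3g*, *Cd247*, *Lck*, *Zap70*, *Lcp2* and *Cd2* were the lowest of the 4. Thy1- libraries 1 and 2 showed the same contrast, with *Cd3d* at 92.4 and 85.6 and *Cd3e* at 18.2 and 10.4. In Thy1hi library 4 it was inverted, with the highest *Cd3e* of its group, 83.4, and the lowest *Cd3d*, 34.9. The closest gene to *Cd3d* is *Cd3g* on the other strand, with no shared exon base.

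**Figure D3:**
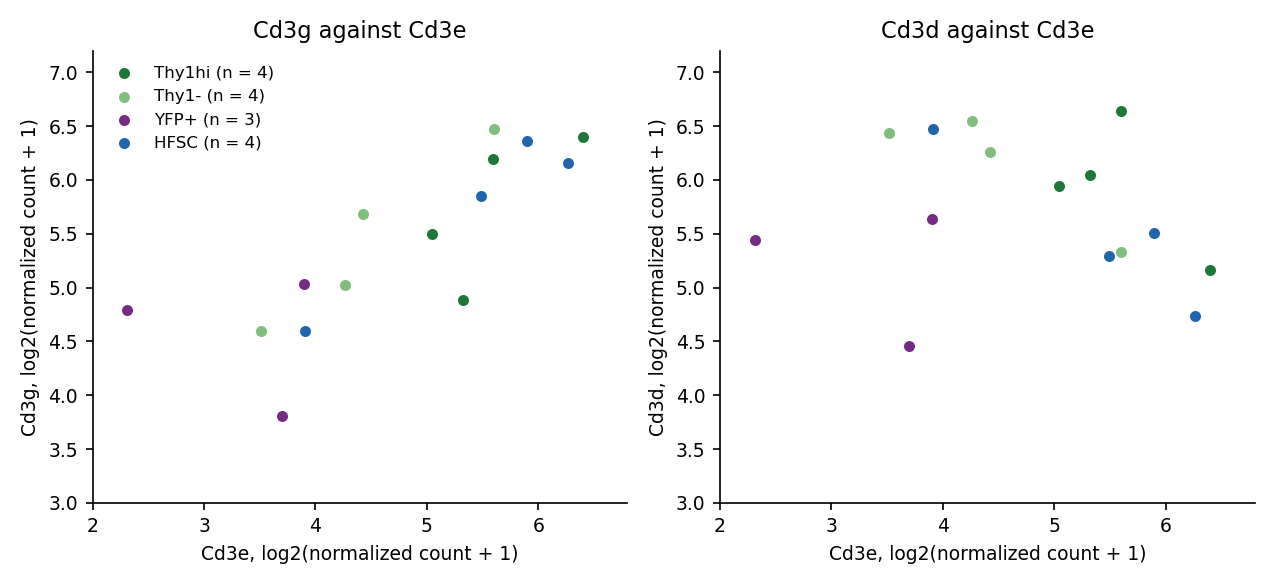
*Cd3g* (left) and *Cd3d* (right) against *Cd3e* in the 15 libraries of Thy1hi, Thy1-, YFP+ and HFSC cells, all as log2(normalized count + 1). *Cd3g* climbs with *Cd3e* (r = 0.81 over 15 libraries) and *Cd3d* does not (r = -0.21).

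Among the keratinocyte populations, the members were not called between Thy1hi and Thy1- cells (0 of 9, with 0.337% of all tested genes called), Thy1hi cells and HFSCs (0 of 9, 13.4%), Thy1- cells and HFSCs (0 of 9, 6.08%) or YFP+ and Thy1- cells (0 of 9, 0.761%). By limma, the unadjusted p was under 0.05 for 1, 0, 0 and 3 members in that order. By edgeR and by DESeq2 the count was also 0 in each of these, where the shares of all genes called by those tools are not given here. The widest 95% interval of a log2 fold change spanned 3.24 between groups of 4 and 3.5 with YFP+ cells, so differences of several fold lay within the intervals of the genes with the widest spread.

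*Cd3e* had the log2 fold change furthest from 0 of the 9 when YFP+ cells were compared with HFSCs, Thy1hi or Thy1- cells. Between YFP+ cells and HFSCs it was called lower in YFP+ cells, with a log2 fold change of -2.09 (SE 0.515, limma adjusted p = 0.0106), beside 11.6% of all tested genes called in that comparison. Its values were 12.0, 13.9 and 3.96 in YFP+ libraries and 43.9, 58.7, 75.9 and 14.0 in HFSC libraries, so the highest YFP+ and the lowest HFSC library all but touched. A two-sided exact permutation test gave p = 0.0571. The call was lost when only these populations were fitted (adjusted p = 0.109) and without YFP+ library 3 (-1.59, adjusted p = 0.102). Without HFSC library 4, *Cd3e*, *Cd3g* and *Cd247* were called lower in YFP+ cells, beside 6.6% of all tested genes called lower. By DESeq2 *Cd3e* and *Cd3g* were called, beside 9.21%.

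Between YFP+ and Thy1hi cells, which were sorted by the same markers apart from the lineage label, no member was called, beside 0.0116% of all tested genes. By the study's methods YFP+ cells came from induced reporter mice and Thy1hi cells from wild-type mice. This difference cannot be told apart from the lineage label. *Cd3e* had a log2 fold change of -2.29 (SE 0.515, limma adjusted p = 0.128), and all 3 YFP+ libraries were below all 4 Thy1hi libraries, which gives the smallest exact permutation p for 3 against 4 libraries, 0.0286. It was called by DESeq2 (adjusted p = 0.00544, beside 0.279% of all genes called lower) and, in limma, without HFSC library 4 (adjusted p = 0.0364, beside 0.0761%). *Cd247* was also separate between these groups, at 8.92 to 17.8 in YFP+ and 19.5 to 23.2 in Thy1hi libraries (log2 fold change -0.80, limma adjusted p = 0.522). The share of all tested genes separate in this way is not given here, so the separation is not read as particular to the members. The 9 receptor chain genes listed below summed to 26.8 to 66.6 in YFP+ and 56.1 to 147 in Thy1hi libraries, and the Langerhans markers to 677 to 1277 and 570 to 1349.

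Between Thy1hi and Thy1- cells, *Cd3e* was higher in the Thy1hi library of each of the 4 same-numbered pairs, 32.02 against 18.2, 47.4 against 10.4, 39.0 against 20.51 and 83.4 against 47.5. The log2 fold change was 1.14 (SE 0.476, limma adjusted p = 0.544). With the replicate number as a block it was 1.14 with an SE of 0.294 and an adjusted p of 0.0464 by limma. In that fit 6.61% of all tested genes were called. Deviations correlated at r = 0.293 to 0.716 in same-numbered pairs of these populations, but at up to 0.514 in differently numbered ones. No other member was called in the blocked fit, where adjusted p ran from 0.383 to 0.895. A two-sided exact permutation test without pairs gave p = 0.114.

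**Figure D4:**
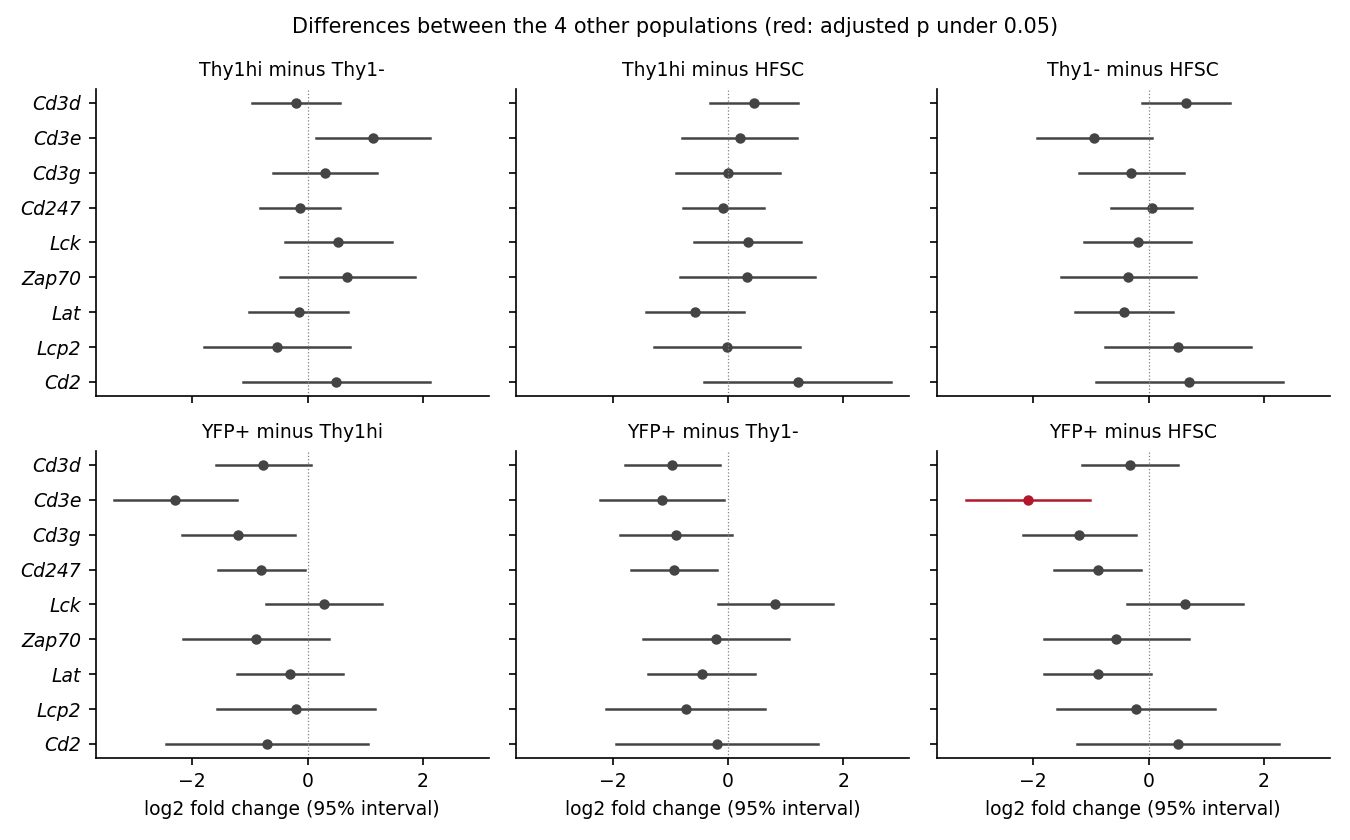
Log2 fold changes with 95% intervals for the 9 genes in the 6 comparisons among Thy1hi, Thy1-, YFP+ and HFSC cells, from limma. The red point, *Cd3e* in YFP+ cells against HFSCs at -2.09, is the one call in these fits.

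The genes around the 9 members were described from lists set by role. The 9 receptor chain genes, constant and variable parts of the γδ and αβ receptors, were all called higher in DETCs in the 4 comparisons, with a median log2 fold change of 6.41 against Thy1hi cells. Of all tested genes, 18.9% to 21.2% were called higher in these comparisons. *Tcrg-C1* (7.12), *Trdv4* (6.95) and *Trdc* (6.88) had the largest changes and *Trbc2* (3.85), *Trac* (5.56) and *Tcrg-C4* (5.81) the smallest. *Trdc*, the δ constant chain, had 3830, 4471, 4241, 8014 and 4714 normalized counts in DETC libraries 1, 2, 3, a and b and at most 62.1 elsewhere, while *Trac* reached 67.3 to 145 in DETC libraries. The cells sorted as DETCs thus carried the receptor RNA that their name implies.

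Of 21 further signalling genes, 17 were called higher against Thy1hi cells, 18 against Thy1- cells, 19 against HFSCs and 18 against YFP+ cells, and none lower. Over all tested genes, 18.9% to 21.2% were called higher and 15.2% to 18.5% lower. The median log2 fold change against Thy1hi cells was 3.29. The phosphatase *Ptprc* (CD45; 6.58) and the adaptor *Grap2* (6.51), which links Lat to SLP-76, were among those that changed most. *Rasgrp1*, a Ras activator, *Nck1*, an adaptor, and *Nfatc3*, a transcription factor, had -0.271, -0.0085 and 0.367 and were not called. *Rasgrp1* had a mean of 242 normalized counts in DETCs and 287 in Thy1hi cells.

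Of 18 negative regulators, 14 were called higher and 2 lower against Thy1hi and Thy1- cells, and 16 higher and 2 lower against HFSCs and YFP+ cells. Over these comparisons, 18.9% to 21.2% of all tested genes were called higher. The share of all tested genes called lower in DETCs was 16.6% against Thy1hi cells, 15.2% against Thy1- cells, 18.5% against HFSCs and 17.6% against YFP+ cells, so 2 of 18 is no more than the share over all genes. The phosphatase *Ptpn22* (6.28) and the adaptors *Sla2* (6.05) and *Sit1* (5.67) changed most against Thy1hi cells. *Cbl* (0.187) and *Cblb* (0.414), ubiquitin ligases, were not called there. The genes called lower were *Dgka* and *Dgkz*, diacylglycerol kinases that remove the lipid messenger made downstream of Lat. *Dgka* had 781, 817, 798, 265 and 609 in DETC libraries 1, 2, 3, a and b and 1581 to 1952 in Thy1hi libraries (log2 fold change -1.50, SE 0.24, limma adjusted p = 4.37e-05). *Dgkz* had 162 to 272 and 325 to 338 (-0.575, SE 0.185, adjusted p = 0.0182), a call lost without the low-value filter and with a replicate block over all populations. Library a, with the least keratinocyte marker RNA, was the lowest DETC library for both, and the part of keratinocyte RNA in these levels was not tested.

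Of 13 coreceptors, costimulatory receptors and Cd2 partners, 12 were tested, and 9, 9, 10 and 9 were called higher in the 4 comparisons. Over all tested genes the share called higher was 18.9% to 21.2%. *Cd244* (6.20), *Cd48* (5.56) and *Pstpip1* (5.36) changed most against Thy1hi cells. Cd48 is the ligand of both Cd2 and Cd244 in the mouse, and Pstpip1 binds the tail of Cd2. *Slamf6* (-0.636) and *Cd2ap* (-0.0617) were not called. *Cd2bp2* (0.415, adjusted p = 0.048 by limma) was called in 10 of 31 alternatives.

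The last list held counterparts of the members in other immune cells. Of its 11 genes 7 passed the filter. Against Thy1hi cells and against HFSCs 4 were called higher and 1 lower, against Thy1- cells 3 higher and 2 lower, and against YFP+ cells 5 higher and 1 lower. Over these comparisons, 18.9% to 21.2% of all tested genes were called higher and 15.2% to 18.5% lower. A count of 1 of 7 called lower is thus no more than the share over all genes. *Fcer1g*, a signalling chain akin to *Cd247*, had 698, 844, 660, 1320 and 602 normalized counts in DETC libraries 1, 2, 3, a and b and 2.80 to 29.3 elsewhere (log2 fold change 6.36 against Thy1hi cells). *Lyn*, a kinase of the Lck family, had 1181 to 2656 in DETCs and 9.91 to 35.6 elsewhere (6.12), and *Lat2*, an adaptor related to Lat, had 38.4 to 112 in DETCs and 4.85 to 17.7 in Thy1hi cells (2.76). *Syk*, the relative of *Zap70*, went the other way, with 30.2 to 59.0 in DETC and 88.3 to 105 in Thy1hi libraries (-1.15, SE 0.24, limma adjusted p = 0.000682), and it was called lower in DETCs in all 4 comparisons. *Blnk*, an adaptor of B cell receptor signalling, was the other gene called lower against Thy1- cells, with 23.3 to 150 in DETC and 109 to 300.5 in Thy1- libraries (-1.39, limma adjusted p = 0.0222). That call was lost without DETC library a, Thy1- library 2 or Thy1- library 3, with a highest adjusted p of 0.0818, and *Blnk* was not called in the other 3 comparisons.

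**Figure D5:**
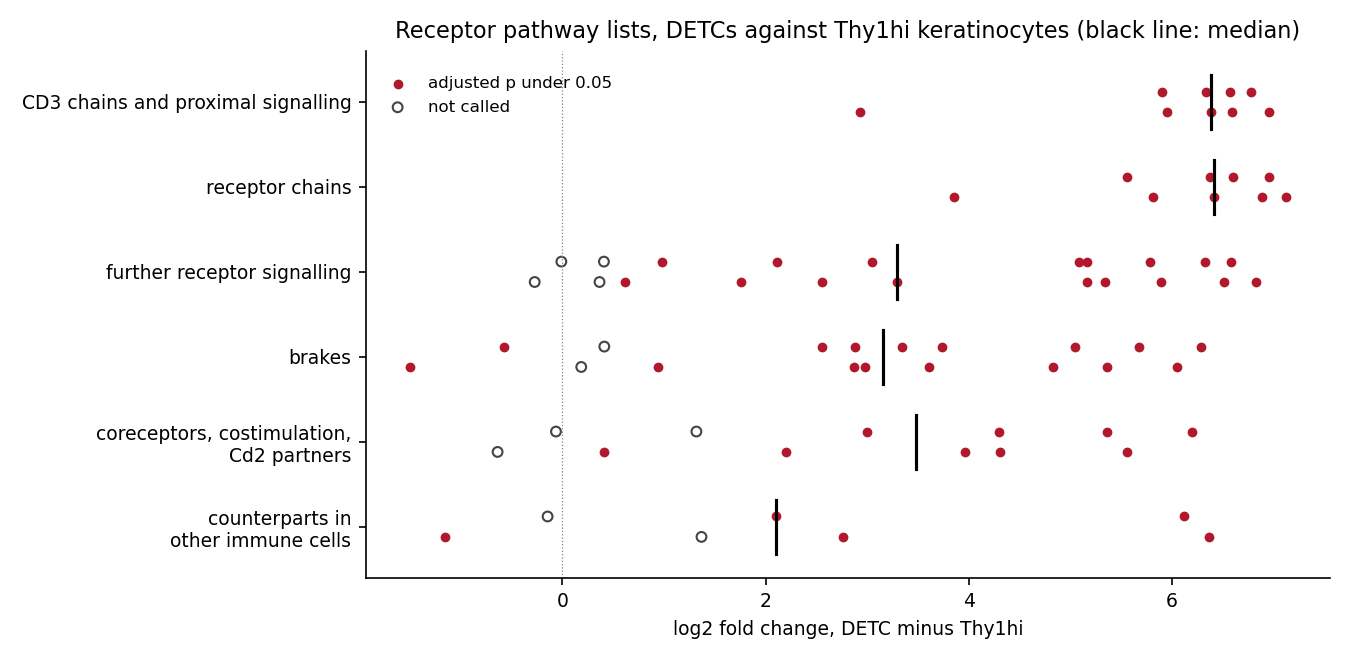
Log2 fold change of DETCs against Thy1hi cells for each tested gene of 6 lists, 1 point per gene, filled red where the limma adjusted p was under 0.05, with a black line at the median of each list. The receptor chains (median 6.41) lie with the 9 members (6.38), and the further signalling genes (3.29), negative regulators (3.16) and counterparts (2.10) spread down to and below 0.

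The genes outside the 9 whose pattern was most like theirs were ranked by the Pearson correlation with the mean log2 level of the members over the 20 libraries. These were *Ptprc* (r = 0.997), *Ptpn22* (0.994), *Cd7* (0.993), *Spn* (0.992), *Crem* (0.992), *Gcnt1* (0.992), *Arhgap45* (0.991), *Klrk1* (0.991), *Runx3* (0.991) and *Arnt2* (0.991). With DETC libraries far from all others, such a correlation mainly records that gap. *Ptprc* had a mean of 10100 normalized counts in DETCs and 67.1 to 101 in the other populations, and *Klrk1*, the NKG2D receptor, 1510 and 7.29 to 13.7.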

How the data were processed

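Libraries of sorted cells had been sequenced by the authors, aligned to mm10 with STAR and counted per gene with featureCounts, as the labels state. Versions of these tools and the strand setting are not given in the sources used here. The deposited values are a normalized signal, read counts that the authors divided by DESeq2 size factors. At least 99.991% of values in each library came out as whole reads within 0.1, and these reads were used for edgeR and DESeq2. In 1 column, Thy1- library 4, values stood in another row order for 3212 genes (no member among them) and were put back. The correlation of 1153 expressed genes among them with the other Thy1- libraries moved from 0.0579 to 0.929. No column of per-sample values was left out.

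Values were tested as log2(value + 1) with limma 3.58.1 (trended empirical Bayes, R 4.3.3) over all 20 libraries with 1 mean per population, for 17204 genes with at least 10 in at least 3 libraries. Adjusted p is Benjamini-Hochberg over these genes. The fit was tested on simulated data. Exact permutation tests were two-sided. Alternatives were the low-value filter dropped or set to a mean of 50 or more, a pseudocount of 10 or of 0.1, quantile normalization, equal totals, edgeR 4.0.16, DESeq2 1.42.0, fits of 2 populations, replicate blocks, the deposited row order and each library left out.

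Same-numbered libraries of Thy1hi and Thy1- cells deviated together (4 pairs, r = 0.293 to 0.716), while differently numbered ones had r = -0.651 to 0.514. For DETC and HFSC libraries 1 to 3 r was 0.170 to 0.333, within the -0.318 to 0.371 of differently numbered ones. These numbers were taken as pairs in the replicate blocks, and the overlapping ranges do not settle whether they mark true pairs. The members, the gene lists and the test relative to *Cd3e* were chosen with earlier results of these data known. Named genes were the 9 members, per list the 3 largest and 3 smallest changes against Thy1hi cells and those called lower in DETCs, the 10 genes most correlated with the members, and neighbours within 5 kb. 1 gene that this rule names is not reported here. *Cd244a* is listed under *Cd244*. Positions and exon lengths came from GENCODE vM21 (GRCm38), whose identifiers and coordinates matched for all 9.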

Additional observations from a re-analysis of the deposited data

Results flagged for a closer look

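Within groups of 4 or 5 libraries, 3 of 36 sets of member values held a library far from the rest by Dixon's criterion, which chance alone gives in about 1 in 20 sets. *Cd247* was at 3755 normalized counts in DETC library a, against 2422 in the next highest, and *Cd2* was at 3174 there, against 1581. *Cd247* was at 10.51 in HFSC library 4, against 26.73 in the next lowest. DETC library a had the least keratinocyte marker RNA of its group and HFSC library 4 the least Langerhans marker RNA, and the part of either in these values was not tested.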

How the results depend on the processing

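The calls of the 9 members in the 4 comparisons with DETCs were kept in all 1125 alternative values, with a highest adjusted p of 0.000129. *Cd3d* lay at log2 fold changes of 2.47 to 3.93 and the other 8 at 4.71 to 9.15. Over libraries left out in turn, counts of members called stayed at 9 in those comparisons, and ranged from 0 to 1 for YFP+ against Thy1hi cells (1 without HFSC library 4) and 0 to 3 for YFP+ cells against HFSCs (0 without YFP+ library 3, 3 without HFSC library 4), and were 0 in the other 4 comparisons. For YFP+ cells against HFSCs DESeq2 called 2 members and the fit of 2 populations 0, and for YFP+ against Thy1hi cells DESeq2 called 1. Members called relative to *Cd3e* ranged from 1 to 3 over libraries left out (2 without HFSC library 4, 3 without Thy1hi library 4) and numbered 5 with a pseudocount of 10. *Cd2* relative to *Cd3e*, at 0.161 and not called, was -0.428 with that pseudocount and ranged from -0.00979 (without HFSC library 4) to 0.291 over libraries left out. The cause of these changes was not tested.

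The replicate block called 1 member, *Cd3e*, between Thy1hi and Thy1- cells and raised the share of all genes called from 0.337% to 6.61%. Between DETCs and HFSCs the block over replicates 1 to 3, an alternative chosen after seeing the data, called the same 9 members. It changed no other call of a member. Scaling to equal totals moved the median log2 fold change of all genes by over 0.1 in 4 of 10 comparisons (largest 0.21, Thy1- cells against HFSCs), and quantile normalization did so in 4 of 10 (largest -0.26, DETCs against YFP+ cells), and *Dgka*, *Dgkz* and *Syk* stayed lower in DETCs under each scaling.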
